A study of Mus musculus with 8 samples.

Results

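Interleukin genes and receptor genes by which macrophages tune inflammation were followed in 2 mouse cell lines that exchanged soluble molecules. The genes were Il10, Il10ra, Il10rb, Il1b, Il1rn, Il6, Il6ra, Il15, Il15ra and Il18, taken by symbol from the array annotation. They are 10 of 18193 genes with a probe set of their own, and 17 of 45037 probe sets other than controls. RAW is RAW264, an established mouse macrophage line, and CT26 is an established mouse colon tumour line. The groups were RAW co-culture, RAW alone, CT26 co-culture and CT26 alone, with 2 arrays each. Their replicate numbers, 1 and 2, were taken to mark 2 experiments. In co-culture RAW cells sat in a transwell insert above CT26 cells, so that molecules passed and cells did not touch, with the insert added 8 hours after seeding. The lines also differed in harvest, since CT26 cells were lifted with trypsin and RAW cells were lysed on the insert. The labels name no genetic change in either line, and the time for which the lines shared medium is not given in the labels.

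Interleukins are secreted proteins that act through receptors on the surface of the producing cell or of its neighbours. Interleukin 10 is a macrophage brake: it binds a receptor made of the chains encoded by Il10ra and Il10rb and signals through JAK1, TYK2 and STAT3 to lower inflammatory cytokine output. Interleukin 1 beta, interleukin 6 and interleukin 18 are drivers of inflammation, interleukin 15 sustains lymphocytes, and the product of Il1rn blocks the interleukin 1 receptor. Bulk RNA from a line cannot tell fewer expressing cells from less RNA per cell.

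Values are log2 expression units on arrays whose medians lay between 5.89 and 5.95. A floor at the 40th percentile of each array, 5.21 to 5.28, was used to separate dim from measurable probe sets, and a gene entered the tests if both arrays of at least 1 group lay above it. Of the 10 genes 9 did, and Il6 did not. Identity of the lines was checked first. All 14 macrophage markers lay above the floor in RAW co-culture and RAW alone, and 11 of 12 markers of the CT26 side did so in CT26 co-culture and CT26 alone. In the other line, 6 and 8 of the 14 macrophage markers lay above the floor in CT26 co-culture and CT26 alone, and 6 and 5 of the 12 CT26-side markers did so in RAW co-culture and RAW alone. Epcam, an epithelial adhesion gene on that list, averaged 6.88 ± 0.00 in RAW alone and 6.87 ± 0.07 in CT26 alone, and Krt8, a keratin gene, averaged 5.80 ± 0.07 in RAW alone and 5.93 ± 0.08 in CT26 alone (SD, n = 2 each). The epithelial cadherin gene Cdh1 was under the floor in CT26 cells too. Summed over the CT26-side markers, linear signal was 615 to 646 in RAW co-culture against 622 to 637 in RAW alone, so it overlapped between these groups. Summed over macrophage markers, it was 1708 to 1769 in CT26 co-culture against 1791 to 1890 in CT26 alone. Cd14 was the brightest of these markers in CT26, at 10.09 ± 0.07 in co-culture and 10.24 ± 0.07 alone (SD, n = 2 each). It thus weighs most in that sum. Cd68, Adgre1, Itgam, Fcgr1, Fcgr3, Ptprc, Tyrobp and Ctss were under the floor on at least 1 array of CT26 co-culture. Of 5 lymphoid markers 4, and of 5 endothelial markers 1, lay above the floor in each of the 4 groups, with Cd3g, Pecam1, Cdh5, Tek and Emcn under it. The part of other cells in the results was not tested.

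Promoter sequence was at hand for 6 of the 10 genes, in 9 windows of 300 bases from RefSeq, build GRCm38.p6. Il10, Il10ra, Il10rb and Il15 are named only. The 150 bases before the start site are shown for Il6, which no group expressed above the floor, for Il18, which separated the lines most, and for Il1rn, which separated them while Il1b did not. Capitals mark matches to the letters searched on both strands.
Il6, chr5:30012964-30013113, plus strand: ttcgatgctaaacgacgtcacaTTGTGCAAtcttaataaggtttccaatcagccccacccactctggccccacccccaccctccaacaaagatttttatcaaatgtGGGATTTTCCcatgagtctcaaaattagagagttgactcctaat
Il18, chr9:50554550-50554699, plus strand: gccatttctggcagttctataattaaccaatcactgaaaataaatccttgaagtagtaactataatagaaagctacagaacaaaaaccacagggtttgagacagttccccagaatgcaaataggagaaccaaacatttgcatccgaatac
Il1rn, chr2:24336710-24336859, plus strand: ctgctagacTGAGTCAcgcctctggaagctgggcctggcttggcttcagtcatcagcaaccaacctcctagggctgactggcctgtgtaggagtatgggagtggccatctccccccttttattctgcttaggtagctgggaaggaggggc
The letters searched were GAAA followed after any 2 bases by GAAA, the core of the interferon-stimulated response element, TTCNNNGAA, bound by STAT dimers, GGG followed after any 2 bases by TTTCC, which resembles an NF-kB site, TGANTCA, an AP-1 site, and TTGCNNAA, which resembles a C/EBP site. Of 32817 promoter windows of all genes, 3.43% held the first, 8.29% the second, 1.63% the third, 7.81% the fourth and 10.8% the fifth. Among the 9 windows of these genes, 0 held the interferon or STAT letters, 3 held the NF-kB letters, 3 the AP-1 letters and 1 the C/EBP letters. Windows of Il1rn overlap and share 1 match to the NF-kB letters, GGGTTTTTCC, outside the stretch shown. The Il6 window also held TGAGTCA further upstream than the stretch shown. The Il18 window held no match, which says only that these letters are not in it.

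Il10 was the gene of this group that differed most between RAW co-culture and RAW alone. It read 4.97 and 5.16 in RAW co-culture, against 6.29 and 6.86 in RAW alone. Both co-culture arrays lay below both arrays of RAW alone and below the floor, which placed the gene among measurable genes only in RAW alone. The means were 5.06 ± 0.14 in RAW co-culture and 6.58 ± 0.40 in RAW alone (log2, SD, n = 2 each). This was a difference of -1.51 ± 0.21 log2 units (SE), or 2.85-fold lower. Within the experiments it was -1.32 and -1.70. Since both co-culture arrays were under the floor, the size is uncertain. The mean of RAW alone was 2.54-fold above the floor of the co-culture arrays, which is a filter setting and not a detection limit. The call depended on the pairing of the arrays. In limma's model of the group means the adjusted p over 13196 genes was 0.0585, so the gene did not pass. It passed once the experiment entered as a block within each line, called the blocked fit below (adjusted p = 0.0016), and with 1 block common to both lines (adjusted p = 0.00913). Without a block 0 of the 9 tested genes were called in RAW, against 0.25% of all genes (0.0834% lower), and the blocked fit called 1, against 3.56% of all genes (2.01% lower). The common block called 1.11% of all genes. At an unadjusted p under 0.05 the 9 genes held 1 without a block and 6 in the blocked fit (Il10, Il10ra, Il6ra, Il15, Il15ra and Il18), while all 13196 genes held 694 and 2418. The gene ranked number 42 of the tested genes by the size of its statistic.

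In CT26 cells Il10 read 4.35 and 4.31 in co-culture, against 4.21 and 4.50 alone. All 4 arrays were under the floor and the groups overlapped, with a difference of -0.03 ± 0.21 (adjusted p = 1.00). Over all genes 0% were called in CT26 co-culture, while 107 of 13196 genes and 0 of the 9 tested here had an unadjusted p under 0.05. The difference between the lines' responses, RAW effect minus CT26 effect, was -1.49 ± 0.29 (adjusted p = 0.57, blocked adjusted p = 0.019, and 0.0954 with a block common to both lines). With all 4 CT26 arrays under the floor, a fall in CT26 could not have been measured. Of all genes 0.00758% were called in that contrast, and 0.743% in the blocked fit. By mean level RAW alone stood above RAW co-culture, CT26 alone and CT26 co-culture. Those groups were all under the floor, so no order among them is given.

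**Figure D1:**
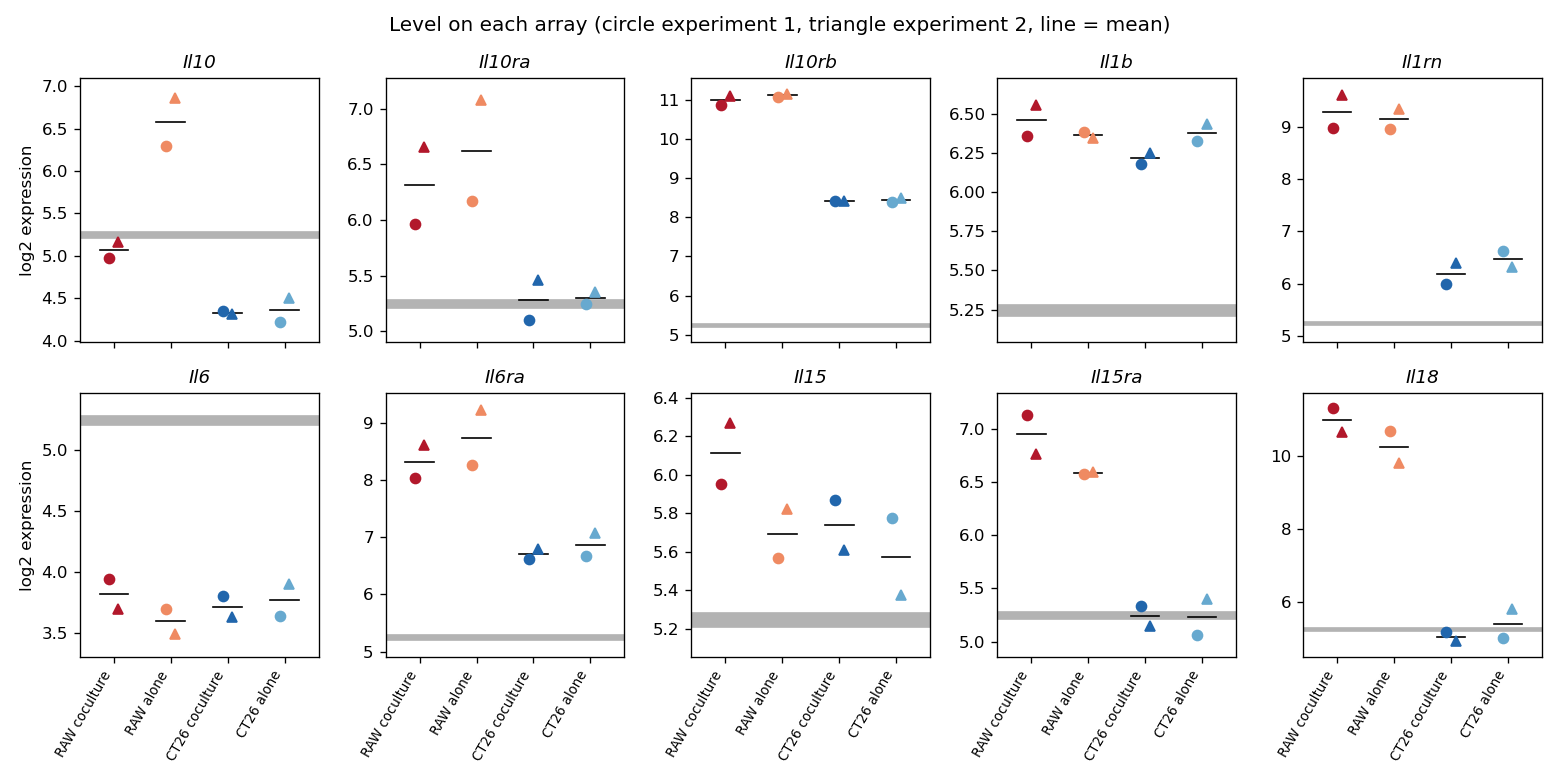
Level of each gene on each array in log2 units, in RAW co-culture, RAW alone, CT26 co-culture and CT26 alone, from the brightest probe set of the gene, with circles for experiment 1, triangles for experiment 2, a line for the mean of 2 arrays and a grey band for the floor of the arrays (5.21 to 5.28). Il10 lies above the floor only in RAW alone, Il6 lies under it on all 8 arrays, and Il18 is high in both RAW groups; vertical scales differ between panels.

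The receptor chains of interleukin 10 did not pass in either line. Il10ra, which encodes the ligand-binding chain, read 5.97 and 6.65 in RAW co-culture, against 6.17 and 7.07 in RAW alone. It read 5.10 and 5.46 in CT26 co-culture, against 5.25 and 5.35 in CT26 alone, with 1 of 2 arrays above the floor in each. In each line co-culture overlapped with the line grown alone, and in RAW the arrays of experiment 2 were higher in both groups. The difference was -0.31 ± 0.34 in RAW (adjusted p = 1.00, blocked adjusted p = 0.182) and -0.02 ± 0.34 in CT26 (adjusted p = 1.00). Of its other probe sets, 1437808_x_at differed by -0.34 and 0.07 in the RAW experiments, and 1456173_at was under the floor on all 8 arrays.

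Il10rb, the chain that the interleukin 10 receptor shares with receptors of interleukin 22 and of lambda interferons, was steadier. It read 10.87 and 11.09 in RAW co-culture, against 11.06 and 11.14 in RAW alone. CT26 co-culture read 8.40 and 8.42, against 8.38 and 8.50 in CT26 alone. The difference was -0.12 ± 0.13 in RAW and -0.03 ± 0.13 in CT26 (adjusted p = 1.00 each), within the spread of the arrays. Its dim second probe set, 1429959_at, gave 0.10 ± 0.17 in RAW.

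The list of interleukin 10, its receptor, the signalling genes Jak1, Tyk2 and Stat3 and genes known to respond to it held 14 genes, all tested. Of these 0 were called in RAW co-culture without a block, and the blocked fit called Il10 alone. The blocked fit called 3.56% of all genes in RAW. At an unadjusted p under 0.05 the list held 4 and, blocked, 6 genes in RAW, where all 13196 genes held 694 and 2418. The median difference in RAW was -0.12 log2 units, against 0.01 over all genes. Besides Il10 the largest statistics belonged to Nfil3, a transcription factor gene, at 0.49 ± 0.17 (adjusted p = 0.748), and Dusp1, which encodes a MAP kinase phosphatase, at -0.34 ± 0.13 (adjusted p = 0.89). Socs3, the feedback inhibitor of STAT3 signalling, averaged 8.08 ± 1.08 in RAW co-culture and 8.36 ± 0.35 in RAW alone (SD, n = 2 each). In CT26 co-culture 0 of the 14 were called in either fit, with a median of 0.02.

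Interleukin 1 beta, which caspase-1 matures from a precursor, was near the same level in every group. Il1b read 6.36 and 6.56 in RAW co-culture, against 6.39 and 6.35 in RAW alone. It read 6.18 and 6.25 in CT26 co-culture, against 6.33 and 6.44 in CT26 alone. RAW co-culture overlapped with RAW alone, and both CT26 co-culture arrays were below both arrays of CT26 alone, as they were for 11.3% of all genes. The difference was 0.09 ± 0.12 in RAW and -0.17 ± 0.12 in CT26 (adjusted p = 1.00 each). RAW alone minus CT26 alone was -0.02 ± 0.12 (adjusted p = 0.939), a difference within the spread of the arrays. Lymphoid markers read at similar levels in RAW alone and CT26 alone: Cd3e 6.49 and 6.47, Cd4 6.70 and 6.65, Cd8a 6.22 and 6.43. Cd79a was dimmer, at 5.72 and 5.83, and Cd3g was under the floor. A reading of this size above the floor need not mean that Il1b was expressed, which was not tested.

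Il1rn, which encodes the antagonist of the interleukin 1 receptor, was higher in RAW, and its brightest probe set lay above the floor in CT26 too. It read 8.98 and 9.60 in RAW co-culture, against 8.95 and 9.34 in RAW alone, and 5.99 and 6.39 in CT26 co-culture, against 6.63 and 6.32 in CT26 alone. The RAW arrays all lay above the CT26 arrays, while co-culture overlapped with growth alone in each line. The co-culture difference was 0.14 ± 0.26 in RAW and -0.28 ± 0.26 in CT26 (adjusted p = 1.00 each). Its probe sets 1451798_at and 1425663_at gave -0.07 ± 0.34 and -0.06 ± 0.17 in RAW, so they differed in sign from the brightest one within their errors.

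Of 15 genes on the interleukin 1 list 13 were tested, and 0 were called in either line with or without a block. At an unadjusted p under 0.05 the list held 0 and, blocked, 3 genes in RAW, where all 13196 genes held 694 and 2418. The median was 0.09 in RAW and -0.09 in CT26, against 0.01 and -0.01 over all genes. Irak2, a receptor-associated kinase gene, had -0.33 ± 0.20 and Il1rap, the accessory receptor chain, 0.22 ± 0.15 in RAW (adjusted p = 1.00 each). The signalling receptor gene Il1r1 averaged 7.16 ± 0.27 in RAW alone and 9.80 ± 0.10 in CT26 alone (SD, n = 2 each), and was called lower in RAW (-2.65 ± 0.18, adjusted p = 4.4e-05). The lines thus differed in opposite directions for Il1rn and Il1r1.

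Il6, the acute-phase cytokine gene, was near the bottom of every array, at a mean percentile of 5.72 in RAW co-culture and 1.61 in RAW alone. It read 3.94 and 3.70 in RAW co-culture, against 3.70 and 3.49 in RAW alone, and 3.80 and 3.63 in CT26 co-culture, against 3.64 and 3.90 in CT26 alone. All 8 values were under the floor, the groups met at 3.70 in RAW and overlapped in CT26, and the gene was not tested. No fold is given, since both groups of each line lay under the floor.

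Il6ra, the receptor chain that binds interleukin 6, was measurable in both lines. It read 8.03 and 8.62 in RAW co-culture, against 8.26 and 9.23 in RAW alone, and 6.62 and 6.80 in CT26 co-culture, against 6.67 and 7.07 in CT26 alone. The RAW difference was -0.23 and -0.61 within the experiments, but the arrays of the groups overlapped. The difference was -0.42 ± 0.34 in RAW (adjusted p = 1.00, blocked adjusted p = 0.125) and -0.16 ± 0.34 in CT26 (adjusted p = 1.00). A second probe set, 1422270_a_at, gave -0.11 ± 0.15 in RAW and 0.15 ± 0.15 in CT26. Of 12 genes on the interleukin 6 list 10 were tested and 0 were called in either line. The median was -0.13 in RAW and -0.07 in CT26. In RAW 1 and, blocked, 4 had an unadjusted p under 0.05, against 694 and 2418 of all 13196 genes. Tyk2, a Janus kinase gene, had 0.29 ± 0.12 (adjusted p = 0.932) and Adam17, a sheddase that can release the receptor from the membrane, -0.30 ± 0.15 (adjusted p = 1.00) in RAW. Il6st, the shared signalling chain, averaged 9.24 ± 0.21 in RAW co-culture and 9.52 ± 0.18 in RAW alone (SD, n = 2 each).

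Interleukin 15 is held on the cell surface by its receptor alpha chain and handed to neighbouring lymphocytes, and both genes are known to respond to interferon. Il15 read 5.95 and 6.27 in RAW co-culture, against 5.57 and 5.82 in RAW alone. Co-culture arrays lay above both arrays of RAW alone, and the difference was 0.38 and 0.45 in the experiments. It averaged 0.42 ± 0.20 log2 units (SE), or 1.33-fold, and did not pass (adjusted p = 1.00, blocked adjusted p = 0.0542). In CT26 it read 5.87 and 5.61 in co-culture, against 5.77 and 5.38 alone, an overlapping pair with a difference of 0.16 ± 0.20 (adjusted p = 1.00).

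Il15ra read 7.13 and 6.76 in RAW co-culture, against 6.58 and 6.59 in RAW alone. These groups did not overlap either, with a difference of 0.36 ± 0.18 (adjusted p = 1.00, blocked adjusted p = 0.268). The second probe set, 1422397_a_at, did not share it, at 0.02 ± 0.15 in RAW. In CT26 Il15ra read 5.34 and 5.14 in co-culture, against 5.06 and 5.40 alone, around the floor, with a difference of 0.01 ± 0.18. Of the 10 genes, Il15 and Il15ra had both RAW co-culture arrays above both of RAW alone, and Il10 had both below. Over all genes 14.2% lay above and 12.3% below in this sense, so such an order is common.

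Of 8 genes on the interleukin 15 list 6 were tested. All 6 had a positive difference in RAW and in CT26, with medians of 0.28 and 0.08, against 0.01 and -0.01 over all genes, and 0 were called without a block. The blocked fit called 1, Stat5a, a transcription factor gene of this receptor, at 0.53 ± 0.20 in RAW (blocked adjusted p = 0.0429, against 0.0874 with a common block and 0.837 without a block). It averaged 7.89 ± 0.07 in RAW co-culture and 7.36 ± 0.29 in RAW alone (SD, n = 2 each). The blocked fit called 3.56% of all genes in RAW. At an unadjusted p under 0.05 the list held 1 and, blocked, 3 genes in RAW, where all 13196 genes held 694 and 2418. Jak3, the kinase gene of the common gamma chain, had 0.20 ± 0.38. The shared beta chain gene Il2rb was under the floor in all groups.

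Il18, which encodes a caspase-1 substrate that acts with interleukin 12 to raise interferon gamma output, read 11.30 and 10.66 in RAW co-culture, against 10.67 and 9.81 in RAW alone. It was higher in co-culture by 0.63 and 0.85 within the experiments, while the groups overlapped, since experiment 2 read lower than experiment 1 in both. The difference was 0.74 ± 0.38 log2 units (SE), or 1.67-fold (adjusted p = 1.00, blocked adjusted p = 0.146). In CT26 it read 5.17 and 4.93 in co-culture, against 5.01 and 5.82 alone. Only 1 of these 4 arrays was above the floor, so the CT26 difference of -0.37 ± 0.38 was not measurable in size.

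Of 8 genes on the interleukin 18 list 6 were tested and 0 were called in either line. In RAW 0 and, blocked, 3 had an unadjusted p under 0.05, against 694 and 2418 of all 13196 genes. The median was 0.22 in RAW and -0.03 in CT26. Il18rap, a receptor accessory chain, had 0.33 ± 0.20 and Casp1, the maturing protease, -0.25 ± 0.20 in RAW (adjusted p = 1.00 each). Nlrp3, an inflammasome sensor gene, averaged 9.60 ± 1.60 in RAW co-culture and 9.30 ± 0.98 in RAW alone (SD, n = 2 each), with a spread larger than the difference. The binding protein gene Il18bp averaged 6.41 ± 0.14 in RAW co-culture and 6.36 ± 0.00 in RAW alone.

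**Figure D2:**
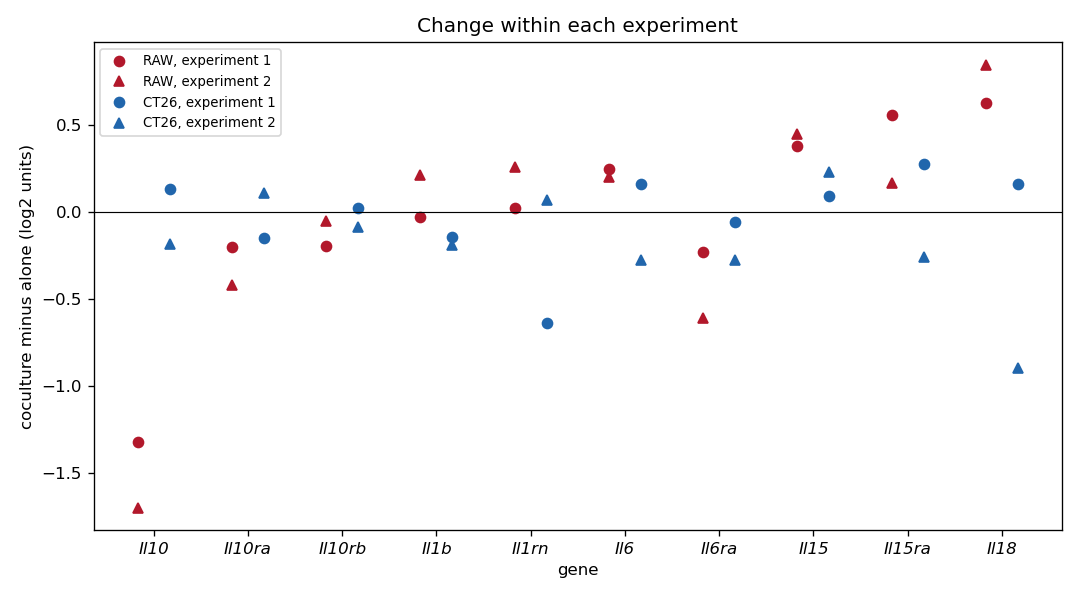
Difference between co-culture and growth alone in log2 units for each gene within experiment 1 (circles) and experiment 2 (triangles), in RAW (red) and CT26 (blue). In RAW, Il10 lies at -1.32 and -1.70, Il18 at 0.63 and 0.85 and Il15 at 0.38 and 0.45, while the lowest CT26 points are Il18 in experiment 2 (-0.90) and Il1rn in experiment 1 (-0.64).

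The lines grown alone were then compared gene by gene. Of the 9 tested genes 7 passed as higher in RAW and 0 as lower, where 17% of all genes were called higher and 17.6% lower. The count is a description, since several of the genes were measurable only in RAW. Il18 averaged 10.24 ± 0.61 in RAW alone and 5.42 ± 0.57 in CT26 alone (SD, n = 2 each), a difference of 4.82 ± 0.38 log2 units (SE) (adjusted p = 8.65e-05), with 1 of 2 CT26 arrays under the floor. Il1rn differed by 2.67 ± 0.26 (adjusted p = 0.000257) and Il10rb by 2.66 ± 0.13 (adjusted p = 6.6e-06). Il10 differed by 2.22 ± 0.21 (adjusted p = 0.000196). CT26 alone was under the floor for it, and the mean of RAW alone was 2.49-fold above that floor. Il6ra differed by 1.87 ± 0.34 (adjusted p = 0.00531) and Il15ra by 1.35 ± 0.18 (adjusted p = 0.00114).

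Il10ra was the weakest of the called genes, at 1.32 ± 0.34 (adjusted p = 0.0223). CT26 alone had only 1 of 2 arrays above the floor for this gene. Its call was lost without either CT26 alone array (adjusted p = 0.0969 and 0.0823 without experiments 1 and 2) and without the RAW alone array of experiment 2 (adjusted p = 0.094, difference 0.87). Other probe sets of the receptor genes gave smaller differences of the same sign. For Il10ra 1437808_x_at it was 0.48 ± 0.16, which did not pass in a fit over 28287 probe sets (adjusted p = 0.065, blocked adjusted p = 0.018). For Il10rb 1429959_at it was 0.78 ± 0.17, for Il6ra 1422270_a_at 0.70 ± 0.15 and for Il15ra 1422397_a_at 0.72 ± 0.15. For Il1rn 1451798_at it was 3.70 ± 0.34 and for 1425663_at 1.02 ± 0.17. Both CT26 groups were under the floor for 1429959_at and 1451798_at, so the size is uncertain there. Il15 differed by 0.12 ± 0.20 (adjusted p = 0.696) and Il1b by -0.02 ± 0.12, and neither passed.

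Genes whose profile over the 8 arrays was most like that of Il10, the only one of these genes that the blocked fit called in RAW, were Olfml3, Folr2 and Serpinb1b. Pearson correlations were 0.991, 0.988 and 0.987 over 8 arrays, which share the contrast between lines and the pairing by experiment, so these are a description. In RAW co-culture against RAW alone Olfml3 differed by -2.67 ± 0.22 (adjusted p = 0.0185), Folr2 by -0.45 ± 0.14 (adjusted p = 0.698, blocked adjusted p = 0.048) and Serpinb1b by -1.33 ± 0.11 (adjusted p = 0.0185).

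Interferon-stimulated genes give a scale of response in the same arrays. Of 26 on the list 22 were tested. In RAW co-culture 6 rose and 0 fell, and in the blocked fit 18 rose, with a median of 1.86 log2 units against 0.01 over all genes. Of all genes 0.25% were called in RAW, and 3.56% in the blocked fit. The 6 were Oasl1, Rtp4, Oas2, Usp18, Irf7 and Dhx58, and the block added Oas1a, Bst2, Xaf1, Ddx58, Ifih1, Irf9, Rsad2, Stat2, Ifit1, Oasl2, Mx2 and Ifit3, with differences from 0.69 to 4.77. In CT26 co-culture all 22 had a positive difference, with a median of 0.53, and 0 were called. There 1 and, blocked, 19 had an unadjusted p under 0.05, against 107 and 752 of all 13196 genes. In RAW the differences of Il15 and Il15ra were below the lowest of those 18, and that of Il18, 0.74, was just above it. Those 18 were picked by passing the blocked fit. The tested list genes outside them had -0.04 (Gbp2), 0.18 (Cxcl10), 0.45 (Ifit2) and 0.55 (Gbp3) in RAW. Il15 and Il15ra, at 0.42 and 0.36, thus lay within the range of the 22 tested genes. Among 20 other interleukin and macrophage cytokine genes 12 were tested and 0 were called in either line. Medians were 0.10 in RAW and 0.06 in CT26. At an unadjusted p under 0.05 the 12 held 0 and, blocked, 4 in each line. With the block all 13196 genes held 2418 in RAW and 752 in CT26. In RAW, Il16 had 0.39 ± 0.20 and Csf3 0.35 ± 0.18 (adjusted p = 1.00 each). Tnf averaged 10.44 ± 0.54 in RAW co-culture and 10.19 ± 0.04 in RAW alone (SD, n = 2 each).

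**Figure D3:**
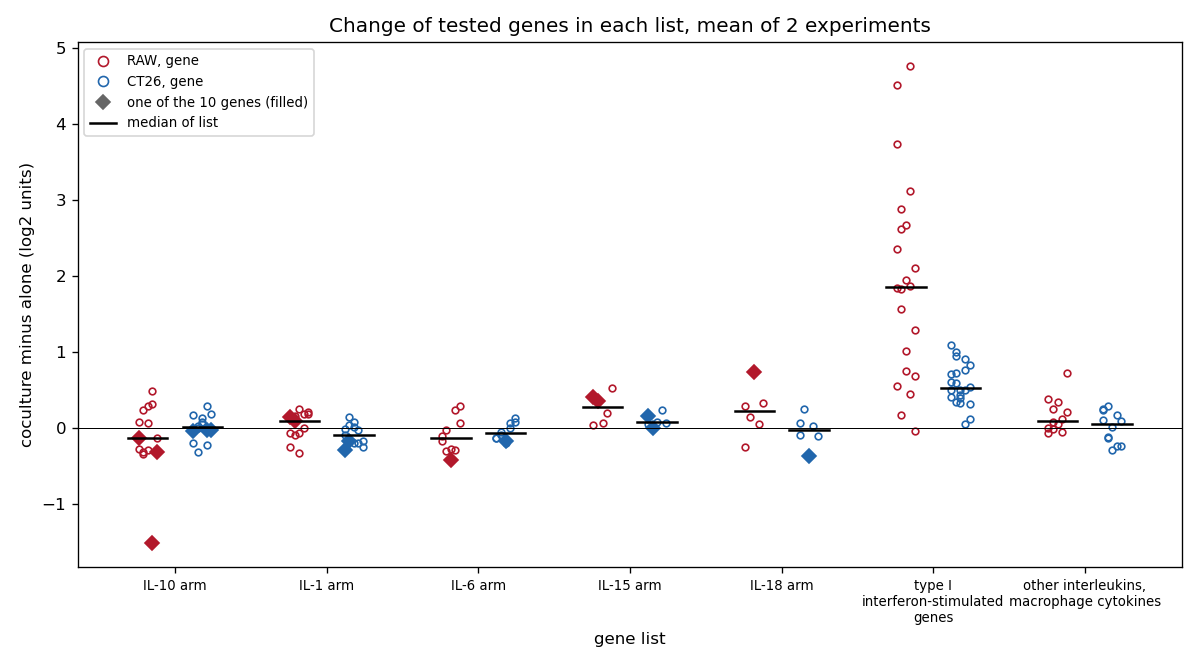
Difference between co-culture and growth alone in log2 units for the tested genes of each list, in RAW (red) and CT26 (blue), with filled diamonds for the interleukin and receptor genes described here, open circles for other genes and a line for the median of the list; a gene on several lists is drawn on each. Il10, at -1.51, is the lowest point in RAW. The medians of the interferon-stimulated genes, 1.86 in RAW and 0.53 in CT26, lie above those of the other lists, while single genes overlap.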

How the data were processed

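Total RNA (5 µg per sample) was labelled with biotin and hybridised to 1 array per sample, 8 in all. The authors deposited log2 expression values that came from RMA (affy), per the submitters' processing notes; for versions and settings, the record used here is silent. Of 45101 probe sets 64 were controls; 34945 of the others had 1 gene symbol, 932 several and 9160 were not listed in the platform annotation. All 10 genes matched RefSeq by Entrez identifier. A gene was represented by its brightest probe set with 1 symbol. limma 3.58.1 in R 4.3.3 was fitted to the 13196 genes past the floor, with 4 group means, no block and 4 residual degrees of freedom, two-sided, with Benjamini-Hochberg adjustment and a threshold of 0.05, and was tested on simulated data. Errors of differences are standard errors of that model; p-values measure the spread between 2 experiments.

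The sample titles give replicate numbers, which were taken to mark the experiments. A batch of arrays shared by 1 number could not be told apart from an experiment. Arrays with 1 number deviated together from the means of their groups, with correlations across genes of 0.484 to 0.765 in all pairs of groups, so the numbers were taken to pair the samples, and fits with an experiment block (3 residual degrees of freedom shared, 2 per line) stand beside results they change. No 2 columns were identical. Equalised arrays hide any change in total RNA, and RMA compresses dim signals. The number of arrays limits the precision. Genes and lists were chosen with earlier results of these data known. Named were all 10 genes, list genes past the threshold (or the 2 largest statistics in RAW where fewer than 2 passed), and the 3 genes most like a called gene. Some genes of the lists are not analysed here.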

Additional observations from a re-analysis of the deposited data

Results flagged for a closer look

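For Il10 the RAW effect minus the CT26 effect was -1.49 log2 units, which passed with an experiment block per line (adjusted p = 0.019, limma) and passed neither with a common block (adjusted p = 0.0954) nor without one (adjusted p = 0.57). Il10 was under the floor on all 4 CT26 arrays, where a fall could not have been measured, so this value does not show that the lines respond differently. By the same test 12 of 22 interferon-stimulated genes differed between the lines with a block per line, against 0.743% of all genes. All 12 had the more positive difference in RAW. Without a block 0 did (13 at an unadjusted p under 0.05, against 328 of all 13196 genes). In the lines grown alone 9 of the 22 were called lower in RAW and 1 higher, against 17.6% and 17% of all genes. The part of this starting level in the differences was not tested.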

How the results depend on the processing

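The lower Il10 reading in RAW co-culture kept its sign in every alternative run, from -1.80 to -1.23 with 1 array left out. It passed with 1 experiment block for both lines, with a block in each line and with a variance trend (adjusted p = 0.00913, 0.0016 and 0.0408). In the other alternatives adjusted p lay between 0.0536 and 0.333, and with the 60th percentile as floor Il10, Il10ra, Il1b, Il15 and Il15ra could not be tested. With every probe set as its own feature, an alternative chosen after seeing the data, it was 0.103. The count of genes called in RAW was 33, and 146 with a shared replicate block, 470 with a block per line, 4 with RAW arrays only and 2 to 30 with 1 array left out. For the RAW effect minus the CT26 effect it was 1, and 11, 98, 4 with a variance trend and 0 to 2. RAW alone against CT26 alone gave 4563, and 6978 and 7735 with the blocks. Among the 9 tested genes the blocks changed no call but those of Il10. In CT26 co-culture limma called 0 genes in each alternative run.

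Signs turned only for differences that did not pass. With probe sets averaged Il10ra had 0.0069 and Il15ra -0.053 in CT26, and Il10rb 0.024 in the RAW effect minus the CT26 effect. With cyclic loess Il15ra had -0.012 in CT26 and Il1b 0.0066 in RAW alone minus CT26 alone. Leaving out an array breaks the pairing and gave these ranges. In RAW, Il10ra had -0.76 to 0.14 (positive without RAW co-culture 1, at 0.033, or RAW alone 2), Il6ra -0.90 to 0.064 (positive without RAW alone 2), Il1rn -0.17 to 0.46 (negative without RAW alone 1, at -0.051, or RAW co-culture 2) and Il1b -0.0087 to 0.19 (negative without RAW co-culture 2). In CT26, Il10 had -0.17 to 0.12, Il10ra -0.20 to 0.16, Il10rb -0.091 to 0.031, Il6ra -0.37 to 0.039, Il15 -0.036 to 0.36 and Il18 -0.77 to 0.038, all turned without CT26 alone 2 (Il10ra, then at 0.03, also without CT26 co-culture 1), and Il15ra -0.16 to 0.18, turned without CT26 alone 1 or CT26 co-culture 1 (-0.087). In the RAW effect minus the CT26 effect, Il10ra had -0.74 to 0.16, Il10rb -0.20 to 0.018 and Il6ra -0.74 to 0.23, turned without RAW co-culture 1 or, except Il10rb, RAW alone 2. In RAW alone minus CT26 alone, Il1b had -0.072 to 0.041 and Il15 -0.080 to 0.32, turned without CT26 alone 2 or RAW alone 2. The cause was not tested.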
